A study of Mus musculus with 6 samples.

Results

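Marker genes of 2 non-parenchymal liver cell types were followed in cultured hepatocytes: 23 markers of the sinusoidal endothelium and 21 markers of hepatic stellate cells. All 44 listed genes were measured, out of 12393 genes with at least 1 probe set that carries a single gene symbol. Members were chosen by name, and each gene was represented by its brightest probe set over the 6 arrays. The arrays were 3 of primary hepatocytes from Alb/AEG-1 mice, whose hepatocytes carry extra AEG-1, the product of Mtdh (AEG-1 stands for astrocyte elevated gene 1), and 3 of hepatocytes from wild-type mice. All mice were of mixed strain B6/CBA, and no age or sex was used here. Cells of both genotypes were plated on collagen-coated plates, received no treatment and were harvested 24 h after plating. The samples are labelled as biological replicates without saying whether each is a separate animal or culture, so p-values cover only the spread among these arrays, which may be technical.

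Sinusoidal endothelial cells line the capillaries of the liver, have open pores in place of a continuous wall, and clear waste from blood through scavenger receptors. They also release signals such as BMP2 that act on hepatocytes. Stellate cells lie between endothelium and hepatocytes, store vitamin A, and turn into matrix-producing myofibroblasts when activated. A hepatocyte preparation can carry some of both. In RNA of a whole culture, fewer cells of a type and less RNA per cell cannot be told apart, and some markers, among them matrix genes, can also be made by hepatocytes.

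Values are log2 expression on the scale of the robust multi-array average (RMA), so a difference of 1 is a 2-fold change. Differences are transgenic minus wild type. A gene is said to have risen or fallen when its limma p-value, adjusted by the Benjamini-Hochberg method over all 12393 genes, was under 0.05. The array medians lay between 5.61 and 5.64, and a level under the pooled median of 5.63 is called dim. Such signal can be close to background, where folds are uncertain, but the median is not a measured background level. Mtdh was at 10.72, 10.40 and 10.81 in the transgenic and 8.75, 8.78 and 8.64 in the wild-type arrays at its brightest probe set, as the labels say, and its other 5 probe sets differed by -0.27 to 0.24. All 17 measured hepatocyte markers were above the array median, with group means from 9.51 for G6pc to 14.70. Of 20 genes of lens, retina, testis, muscle, brain and pituitary, 16 were dim in both genotypes, with a median level of 4.11. By limma 1 rose (Prm1, a sperm protamine gene, by 0.20) and 0 fell, with 4 at an unadjusted p under 0.05. That is 5.0% called, against 15.9% of all genes.

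Of the 44 markers of both cell types 5 passed the test and 18 were dim in both genotypes. Of the 23 endothelial markers 3 rose, the secreted growth factor gene Bmp2, the C-type lectin gene Clec4g and the VEGF receptor gene Kdr, and 0 fell. Of the 21 stellate markers 1 rose, the proteoglycan gene Lum, and 1 fell, the type IV collagen gene Col4a1. These are 13.0% and 9.52% of the members, against 15.9% of all genes called in either direction. Among all genes 6.83% rose and 9.05% fell, so the share of risen endothelial markers was 13.0% against 6.83%, which rests on 3 genes. The largest of these changes was 1.48-fold. At an unadjusted p under 0.05 there were 6 endothelial (26.1%) and 8 stellate markers (38.1%), against 28.9% of all genes.

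The defining markers of the endothelium were unequal in signal. Of the 23, 13 were at or above the array median in both genotypes, 8 were dim in both, and Flt1 and Gata4 were dim in 1 genotype each. The dim ones were Stab1, Pecam1, Flt4, Tek, Tie1, Dnase1l3, Emcn and Cd34, the lowest of which, Cd34, was at 3.05 ± 0.10 in transgenic and 3.03 ± 0.07 in wild-type cells (SD, n = 3 each). Of the 21 stellate markers 11 were above the median in both genotypes and 10 were dim in both: Acta2, Col1a1, Col3a1, Col6a1, Lum, Pdgfra, Pdgfrb, Ngfr, Hand2 and Lox. Probe sets differ in how strongly they bind, so these signals do not rank the genes by abundance.

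**Figure D1:**
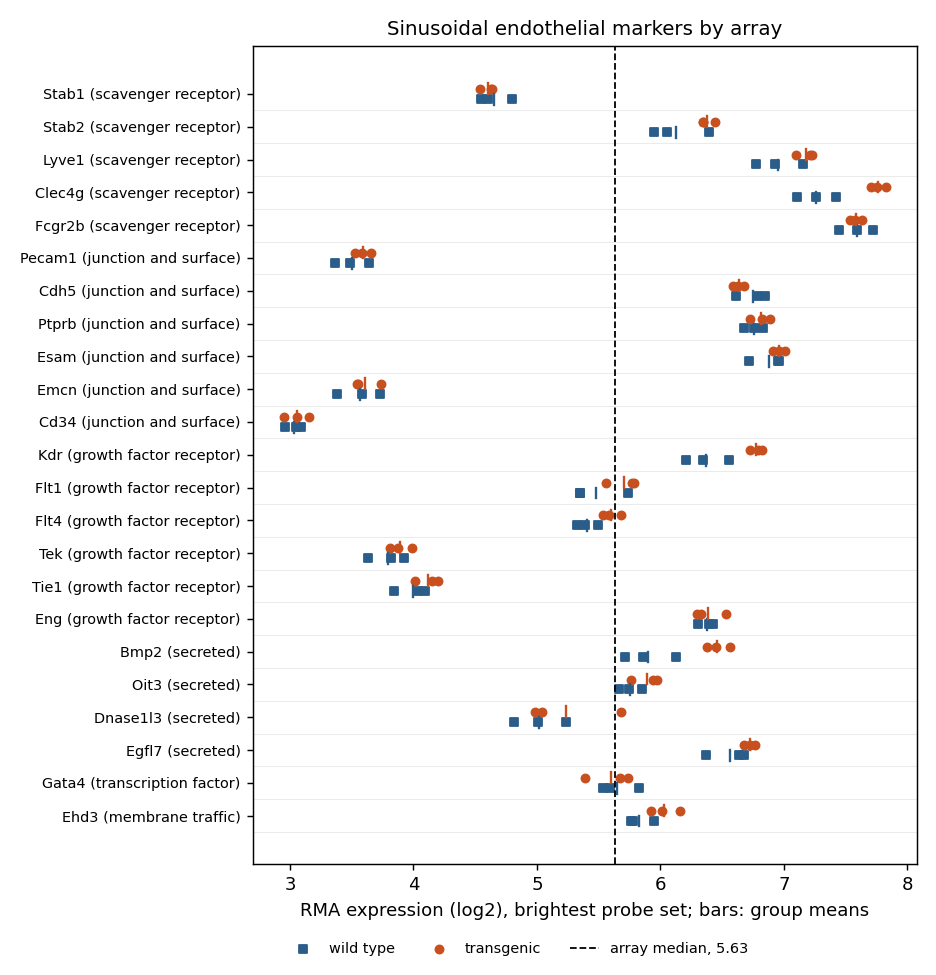
Level of each of the 23 sinusoidal endothelial markers on the 6 arrays (log2 RMA, horizontal axis), at the brightest probe set. Circles are the 3 transgenic arrays, squares the 3 wild-type arrays, short bars the group means and the dashed line the array median of 5.63. The genotypes separate for Bmp2, Clec4g, Kdr and Flt4 and overlap for the other 19 genes. The label scavenger receptor also covers the lectin gene Clec4g and the Fc receptor gene Fcgr2b.

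In the group of endothelial scavenger, lectin and Fc receptors, Clec4g rose. It encodes LSECtin, a lectin of the sinusoidal endothelium, and read 7.75, 7.70 and 7.83 in the transgenic against 7.26, 7.11 and 7.42 in the wild-type arrays. All transgenic values lay above all wild-type values. The difference was 0.50 (SE 0.08), a 1.41-fold increase (limma adjusted p = 0.00633). A dim second probe set of Clec4g gave 0.17 (adjusted p = 0.458 when every probe set was tested). The mean over both probe sets gave 0.33, which still passed limma with an adjusted p of 0.0227.

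The scavenger receptors and the Fc receptor of this group did not pass. Stab2, the receptor that clears hyaluronan, read 6.35, 6.35 and 6.44 against 6.39, 6.06 and 5.94, so 1 wild-type array overlapped the transgenic ones. Its difference was 0.25 (95% interval -0.01 to 0.50). Lyve1, another hyaluronan receptor, gave 0.22 (95% interval 0.00 to 0.45). Both would have passed limma without 1 wild-type array, Stab2 without replicate 1 (0.38, adjusted p = 0.0144) and Lyve1 without replicate 3 (0.33, adjusted p = 0.0450). Stab1, a scavenger receptor of the same family as Stab2, gave -0.05 at dim signal. Fcgr2b, the inhibitory Fc receptor of the sinusoid, was at 7.58 ± 0.05 against 7.59 ± 0.14 (SD, n = 3) at its brightest probe set. The difference was -0.01 (95% interval -0.19 to 0.17). The less bright probe sets of Fcgr2b, also above the array median, gave 0.28, 0.03 and 0.03. The first of these had a limma adjusted p of 0.146 when every probe set was tested.

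Among the growth factor receptors, Kdr rose. It encodes VEGFR2, the main signalling receptor for VEGF-A, and read 6.72, 6.79 and 6.82 in the transgenic against 6.56, 6.34 and 6.21 in the wild-type arrays. The genotypes did not overlap. The difference was 0.41 (SE 0.09), a 1.33-fold increase (limma adjusted p = 0.0196). The call was lost without transgenic replicate 2 or 3 (adjusted p = 0.0586 and 0.0679) and without wild-type replicate 2 or 3 (adjusted p = 0.0686 and 0.0534), with differences from 0.33 to 0.40.

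The remaining receptors of this group did not pass, and all 6 differences were positive. Flt1, a receptor that binds VEGF-A tightly, gave 0.22 (95% interval -0.05 to 0.49) and passed limma only without wild-type replicate 1 (0.35, adjusted p = 0.0357). Flt4, the receptor for VEGF-C, read 5.59, 5.54 and 5.68 against 5.39, 5.32 and 5.50. Its genotypes did not overlap, but the difference of 0.20 (95% interval 0.04 to 0.35) had a limma adjusted p of 0.0927. Tek, the angiopoietin receptor, and its partner Tie1 were dim in both genotypes, with differences of 0.10 and 0.13. Eng, a co-receptor for TGF-beta family ligands, gave 0.01 (95% interval -0.17 to 0.18).

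Bmp2 was the member with the largest difference. It encodes a ligand from sinusoidal endothelium that drives hepcidin expression in hepatocytes, and read 6.56, 6.37 and 6.45 in the transgenic against 5.86, 5.71 and 6.12 in the wild-type arrays. The genotypes did not overlap, and the wild-type arrays spread more (SD 0.21 against 0.09). The difference was 0.56 (SE 0.11), a 1.48-fold increase (limma adjusted p = 0.00977). The other secreted products gave 0.16 for Egfl7, a vascular matrix protein, 0.14 for Oit3 and 0.21 for the nuclease gene Dnase1l3, and none of these passed. The less bright probe sets of Egfl7, also above the array median, gave 0.05, -0.04 and -0.22. Dnase1l3 varied the most among transgenic arrays, at 5.04, 4.99 and 5.68, so 1 array carried its difference.

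Junction and surface genes of the endothelium stayed close to 0, with none of 6 past the threshold by limma (0 also at an unadjusted p under 0.05) and differences from -0.11 to 0.09. Cdh5, the VE-cadherin of endothelial junctions, was at 6.63 ± 0.04 in transgenic and 6.75 ± 0.12 in wild-type cells (SD, n = 3), a difference of -0.11 (95% interval -0.28 to 0.05). The upper bound lies under the differences measured for Bmp2, Clec4g and Kdr, a comparison given without a test. A dim second probe set of Cdh5 gave 0.04. The receptor phosphatase gene Ptprb gave 0.06, the junction protein gene Esam 0.08 and the adhesion gene Pecam1 0.09, the last at dim signal. The surface sialomucin genes Emcn and Cd34 gave 0.05 and 0.02, both dim. Gata4, a transcription factor that maintains sinusoidal identity, gave -0.05 (95% interval -0.31 to 0.21), and the endocytic traffic gene Ehd3 gave 0.20 (95% interval 0.02 to 0.39, adjusted p = 0.141 by limma).

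**Figure D2:**
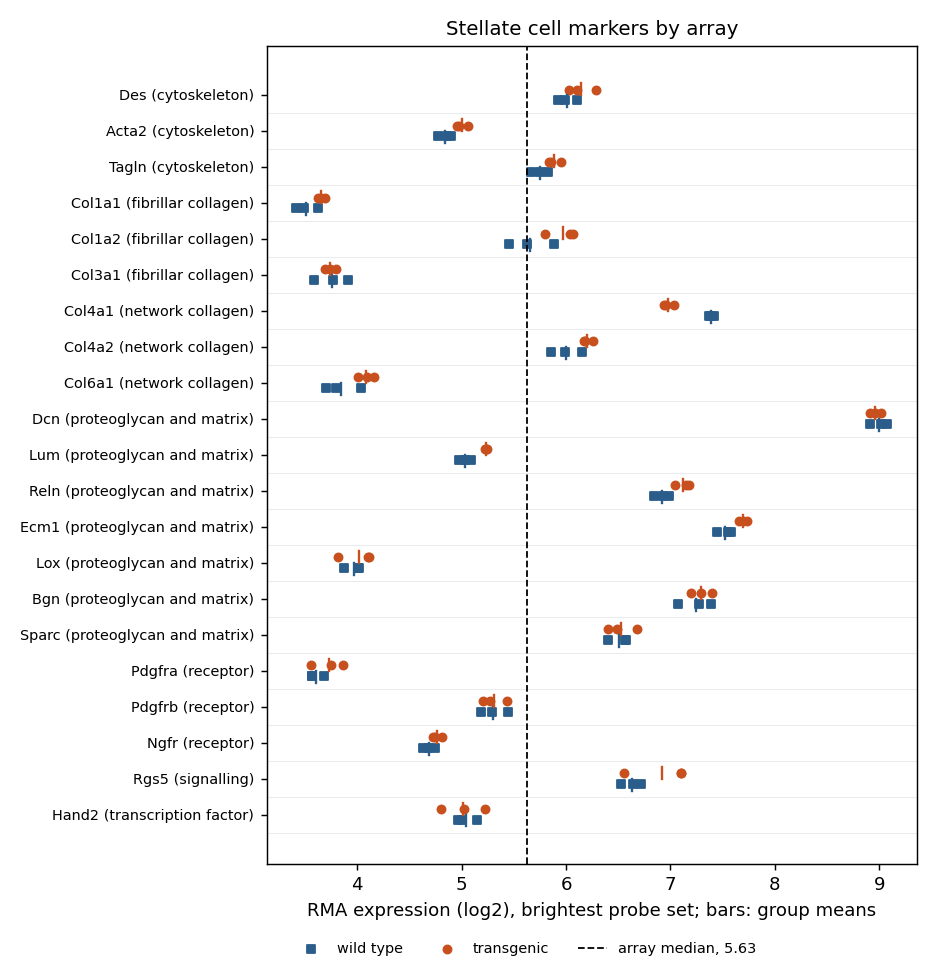
Level of each of the 21 stellate cell markers on the 6 arrays (log2 RMA, horizontal axis), drawn as circles for transgenic and squares for wild-type arrays, with group means as short bars and the array median of 5.63 as a dashed line. Transgenic values lie below all wild-type values for Col4a1, and above them for Col4a2, Lum, Reln, Ecm1, Acta2 and Tagln.

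Of the type IV collagen genes of the stellate list, Col4a1 fell at 1 of its 2 probe sets and Col4a2 did not pass. Col4a1 and Col4a2 encode the chains of the main basement membrane collagen and are transcribed in opposite directions from a shared region. Col4a1 at its brightest probe set read 6.95, 6.94 and 7.03 in the transgenic against 7.37, 7.42 and 7.39 in the wild-type arrays. The genotypes did not overlap and each was tight. The difference was -0.42 (SE 0.05), a 1.34-fold decrease (limma adjusted p = 0.00182). Col4a2 read 6.18, 6.18 and 6.26 against 5.99, 6.15 and 5.86, higher in every transgenic array, with a difference of 0.20 (95% interval 0.02 to 0.39) that did not pass limma (adjusted p = 0.136).

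The fall of Col4a1 rests on 1 of its 2 probe sets. The second probe set has nearly the same signal and read 6.99, 6.95 and 6.92 against 6.77, 6.91 and 6.88, a difference of 0.10 (adjusted p = 0.352 when every probe set was tested). Within each array, the first probe set exceeded the second by 0.51 to 0.60 in wild-type cells, while in transgenic cells this gap ran from -0.03 to 0.11. The mean gap was 0.02 in transgenic and 0.54 in wild-type cells. The second probe set minus Col4a2 was 0.75 ± 0.08 in transgenic and 0.85 ± 0.15 in wild-type cells (SD, n = 3). These comparisons between probe sets were chosen after their values were seen and are given without a test, and which part of the transcript each probe set reads was not used here. With the mean of both probe sets Col4a1 gave -0.16 (limma adjusted p = 0.0740).

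**Figure D3:**
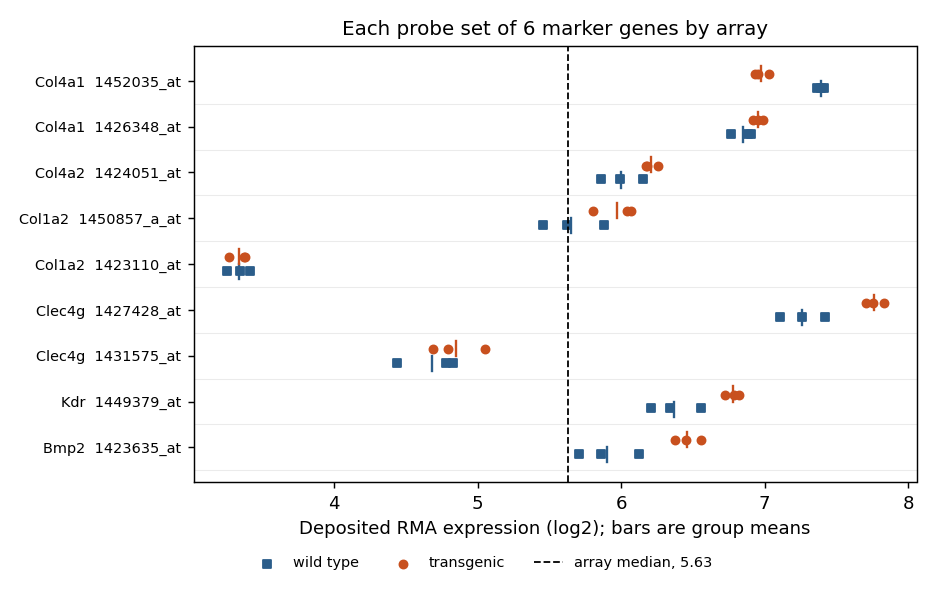
Each probe set of Col4a1, Col4a2, Col1a2, Clec4g, Kdr and Bmp2 on the 6 arrays (log2 RMA, horizontal axis), with circles for transgenic arrays, squares for wild-type arrays, short bars for group means and a dashed line at the array median of 5.63. The Col4a1 probe sets differ by -0.42 and 0.10 between genotypes, and the dim probe sets of Col1a2 and Clec4g show less separation than the bright ones.

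The start regions of Col4a1 and Col4a2 are printed because these neighbouring genes share sequence there, while Col4a1 at its brightest probe set differed in sign from Col4a2 (its second probe set had the same sign as Col4a2). Each window runs from 250 bases before to 50 after the annotated start (RefSeq, GRCm38.p6), at chr8:11312777-11313076 on the minus strand for Col4a1 and chr8:11312555-11312854 on the plus strand for Col4a2. Capitals mark the 78 bases that both windows hold, read from opposite strands, of which 73.1% are G or C.
Col4a1: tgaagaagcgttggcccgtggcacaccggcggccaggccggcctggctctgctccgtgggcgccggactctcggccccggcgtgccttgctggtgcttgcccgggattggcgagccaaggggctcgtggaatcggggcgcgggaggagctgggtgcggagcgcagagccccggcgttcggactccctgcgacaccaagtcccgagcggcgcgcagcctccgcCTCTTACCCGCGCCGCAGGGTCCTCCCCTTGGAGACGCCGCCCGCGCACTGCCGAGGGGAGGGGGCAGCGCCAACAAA
Col4a2: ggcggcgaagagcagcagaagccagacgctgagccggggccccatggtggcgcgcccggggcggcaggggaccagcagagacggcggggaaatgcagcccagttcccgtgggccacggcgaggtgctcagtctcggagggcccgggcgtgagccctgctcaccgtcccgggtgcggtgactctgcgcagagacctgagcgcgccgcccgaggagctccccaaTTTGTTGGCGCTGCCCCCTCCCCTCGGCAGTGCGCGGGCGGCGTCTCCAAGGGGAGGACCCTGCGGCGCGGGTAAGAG
The SP1 motif GGGCGG, searched on both strands with overlapping matches counted, occurs 1 time in the Col4a1 and 3 times in the Col4a2 window, and 35.7% of all 32851 windows hold it.

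Windows were listed for 29 of the 44 members, among them Clec4g and Kdr of the risen genes. They are shown with capitals for matches to GATA motifs (AGATAA or AGATAG, and TGATAA or TGATAG) and the ETS core CCGGAA, searched on both strands, since GATA and ETS factors act in endothelial cells. The Clec4g window is chr8:3720602-3720901 and the Kdr window chr5:75978406-75978705, both on the minus strand.
Clec4g: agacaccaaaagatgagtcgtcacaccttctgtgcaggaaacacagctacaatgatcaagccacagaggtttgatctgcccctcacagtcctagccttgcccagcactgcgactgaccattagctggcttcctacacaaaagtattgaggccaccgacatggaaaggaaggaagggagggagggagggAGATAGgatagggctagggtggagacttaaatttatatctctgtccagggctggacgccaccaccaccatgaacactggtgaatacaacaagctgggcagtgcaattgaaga
Kdr: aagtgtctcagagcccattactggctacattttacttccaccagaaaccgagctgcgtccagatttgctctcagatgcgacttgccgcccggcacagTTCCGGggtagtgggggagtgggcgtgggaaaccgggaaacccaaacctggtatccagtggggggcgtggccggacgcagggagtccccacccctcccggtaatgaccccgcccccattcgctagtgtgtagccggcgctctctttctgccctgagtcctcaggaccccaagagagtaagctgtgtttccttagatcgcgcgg
Clec4g holds 1 GATA match and Kdr 1 ETS match, and the former motifs occur in 29.8% and the latter in 14.9% of all windows of this length. A match describes these letters and is not a measured binding site.

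The other matrix genes of the stellate list did not pass, apart from Lum. Lum encodes lumican, a small proteoglycan of collagen fibrils, and read 5.22, 5.24 and 5.24 against 4.98, 5.09 and 5.03. The genotypes did not overlap, but both were dim. Lumican mRNA rose by 0.20 (SE 0.05, limma adjusted p = 0.0442), a call that held under 2 of 14 other settings and was lost when any 1 array was left out (adjusted p = 0.0531 to 0.114). Its relative Dcn, which encodes decorin, read 8.91, 8.96 and 9.02 against 9.02, 8.91 and 9.07, a difference of -0.04 (95% interval -0.19 to 0.11). Bgn, the biglycan gene, gave 0.05, Sparc, a collagen-binding protein gene, gave 0.01, and Lox, the collagen cross-linking oxidase, gave 0.05 at dim signal.

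Reln and Ecm1, matrix genes of quiescent stellate cells, were higher in every transgenic array than in any wild-type array. Reln read 7.15, 7.04 and 7.17 against 6.98, 6.93 and 6.84, a difference of 0.20 (95% interval 0.06 to 0.35, limma adjusted p = 0.0680). Ecm1 read 7.69, 7.65 and 7.74 against 7.58, 7.45 and 7.55, a difference of 0.17 (95% interval 0.03 to 0.31, limma adjusted p = 0.0985). Both missed the threshold over all genes.

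None of the 3 fibrillar collagen genes that mark activated stellate cells passed limma (1 at an unadjusted p under 0.05), and Col1a1 and Col3a1 were dim. Col1a1 was at 3.65 ± 0.03 against 3.51 ± 0.10 and Col3a1 at 3.74 ± 0.05 against 3.76 ± 0.17 (SD, n = 3), with differences of 0.14 and -0.01. Col1a2 at its brightest probe set read 6.07, 5.80 and 6.04 against 5.45, 5.63 and 5.88, with 1 wild-type array inside the transgenic range. Its difference was 0.32 (95% interval 0.05 to 0.59, limma adjusted p = 0.116), and the second, dim probe set gave 0.00. Without wild-type replicate 3 the first gave 0.43 and passed limma (adjusted p = 0.0441). Col6a1, a chain of type VI collagen, gave 0.24 at dim signal and passed limma only without wild-type replicate 1 (0.34, adjusted p = 0.0247).

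Contractile and signalling genes of stellate cells did not pass either. Acta2, the smooth muscle actin of myofibroblasts, read 5.06, 4.98 and 4.96 against 4.86, 4.78 and 4.89, without overlap but dim. Its difference was 0.15 (95% interval 0.02 to 0.29, limma adjusted p = 0.129). A second, dimmer probe set of Acta2 gave -0.003, at 3.90 against 3.90. Tagln, another smooth muscle gene, gave 0.14, and Des, the desmin filament gene, gave 0.13. The platelet-derived growth factor receptor genes Pdgfra and Pdgfrb gave 0.12 and 0.00, and the nerve growth factor receptor gene Ngfr gave 0.07, all dim. Hand2, a transcription factor of the stellate lineage, gave -0.02. Rgs5, a regulator of G protein signalling in pericytes, read 7.10, 6.55 and 7.10 against 6.64, 6.53 and 6.72. Its difference was 0.29 (95% interval -0.04 to 0.62), but without transgenic replicate 2 it was 0.47 and passed limma (adjusted p = 0.00991), and its 3 dim probe sets gave -0.19, -0.24 and 0.08.

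**Figure D4:**
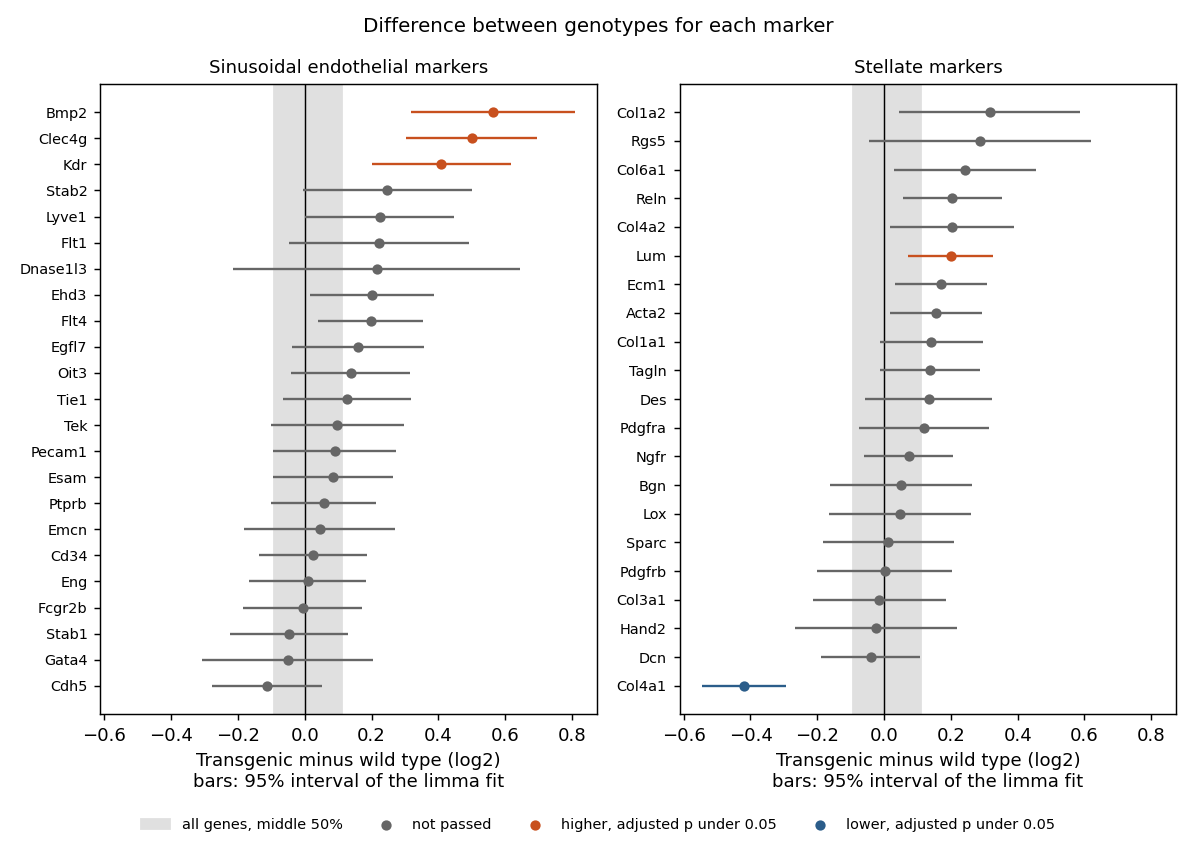
Transgenic minus wild-type difference (log2, horizontal axis) of each endothelial (left) and stellate (right) marker, with the 95% interval of the limma fit as a bar and the middle 50% of all genes shaded. Intervals of 14 members exclude 0, those of the 4 risen and 1 fallen member among them, and most other members lie to the right of 0 by less than 0.3.

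Most differences were small and positive. They were above 0 for 19 of 23 endothelial and 17 of 21 stellate markers, against 53.1% of all genes, 61.5% of genes whose mean lay under the array median and 46.5% of those at or above it. The list medians were 0.13 and 0.13, against 0.01 for all genes. Under the other scalings the positive counts were 18 and 16 with arrays centred on their median, and 20 and 16 with quantile normalization repeated. Without wild-type replicate 2 they were 16 and 15, and without transgenic replicate 3 also 16 and 15. With the mean of all probe sets of a gene they were 18 and 14, and the list medians were 0.10 and 0.08. Positive shares in the companion lists, described below, ran from 46.4% (BMP signalling and hepcidin control) to 87.0% (Kupffer cell and leukocyte markers). The latter had 20 of 23 above 0 and a median of 0.16. Further endothelial genes had 69.7% and the genes of lens, retina and other organs 70.0%. Wild-type replicate 2 was the lowest wild-type array for 16 of the 23 endothelial markers, and transgenic replicate 3 the highest transgenic array for 14 endothelial and 15 of 21 stellate markers. Whether these arrays hold more or fewer of the marked cells was not tested.

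The genotypes did not overlap for 4 endothelial and 7 stellate markers, 25.0% of the 44, against 34.5% of all genes. Of these, transgenic values were above for 4 endothelial and 6 stellate markers and below for Col4a1, where the shares over all genes were 16.9% and 17.6%. The number of endothelial markers called was 5 without wild-type replicate 1, when Stab2 and Flt1 passed too. Of 24 members with several probe sets, 13 had differences of 1 sign over all of them and 11 had both signs.

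Summed over the list on the linear scale, the endothelial signal was 1709 to 1828 in the transgenic and 1448 to 1631 in the wild-type arrays, without overlap. Such a sum was also without overlap for 5 of the 10 companion lists, higher in transgenic arrays for 3 (VEGF, angiopoietin and Notch signalling, cholangiocyte markers, and the genes of lens and other organs, the last at 719.5 to 734.5 against 675.2 to 709.9) and lower for 2. The stellate sum was 1786 to 1923 against 1730 to 1825, with overlap. Taken as a mean of log2 levels instead, stellate markers did not overlap, at 5.70 to 5.78 against 5.60 to 5.65. The endothelial means were 5.73 to 5.83 against 5.52 to 5.68, and the Kupffer cell and leukocyte means 6.23 to 6.27 against 5.99 to 6.09. Such means were also higher without overlap for cholangiocyte and collagen processing genes, and lower for hepatocyte and BMP genes. Of 23 measured Kupffer cell and leukocyte markers 6 rose, 1 fell and 16 did not pass, 30.4% called against 15.9% of all genes, and their sum was 2495 to 2542 against 2331 to 2515, with overlap. Ptprc, the leukocyte antigen CD45, rose by 0.61 and Cd53, a leukocyte tetraspanin gene, by 0.43, while the endotoxin co-receptor gene Cd14 fell by 0.45. Of genes chosen after their values were seen, Clec4f, a defining Kupffer cell lectin, was at 6.80 against 6.74 and did not pass. The other risen genes of this list were Marco by 0.69, Mrc1 by 0.46, C1qc by 0.35 and the dim Itgb2 by 0.40. Hepatocyte markers gave 1 risen and 3 fallen of 17, 23.5% called against 15.9% of all genes. Among them, the plasma protein gene Ahsg rose by 0.21, the glucose phosphatase gene G6pc fell by 0.86 and the transcription factor gene Cebpa fell by 0.25. Cholangiocyte markers gave 1 risen of 8, or 12.5% called, the adhesion gene Epcam by 1.52. The part of these cells in the endothelial and stellate values was not tested.

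Of 33 further endothelial genes measured outside the marker list, 6 rose and 3 fell. These are 18.2% and 9.09%, against 6.83% and 9.05% of all genes, and 23 of the 33 differences were above 0. Cav1, the coat protein of caveolae, fell from 5.99 ± 0.11 to 4.77 ± 0.11 (SD, n = 3), by 1.22, with a limma adjusted p of 6.06e-05, and its transgenic level was dim. Procr, the endothelial protein C receptor gene, rose by 0.58 and Lmo2, a transcriptional cofactor of blood vessels, fell by 0.54. Klf2, Vwf, Nos3, Icam2, Sox18, Adgrl4, Ets1 and Thbd were chosen after their values were seen. The shear stress factor gene Klf2 rose by 0.65, at 5.58 against 4.93, both dim. The coagulation factor carrier gene Vwf was dim at 3.55 against 3.44, and the nitric oxide synthase gene Nos3 gave 0.15 without passing. Icam2 rose by 0.44 and Sox18 by 0.46, both dim, Adgrl4 rose by 0.42 and Ets1 by 0.32, and Thbd fell by 0.31. In VEGF, angiopoietin and Notch signalling, 1 of 19 genes rose and 1 fell, 10.5% called against 15.9% of all genes. Vegfa, the ligand of Kdr and Flt1, rose by 0.39 at its brightest probe set and by 0.67 at the other, while the Notch ligand gene Jag1 fell by 0.85 to a dim 5.24.

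In BMP signalling and hepcidin control, 1 of 28 measured genes rose and 3 fell, 14.3% called against 15.9% of all genes. The BMP target genes differed in sign, as Id2 fell by 0.63, also at its second bright probe set (by 0.65), and Id3 rose by 0.32. Acvr1, a type I receptor, fell by 0.64 at its brightest probe set, while a dim one rose by 0.23 (adjusted p = 0.0336 when every probe set was tested). Of genes chosen after their values were seen, Hamp, the hepcidin gene, was at 13.60 against 13.51 and Id1 at 6.94 against 6.98, and neither passed limma (adjusted p = 0.348 and 0.876). Bmp6, the other endothelial ligand of this pathway, gave 0.21 at dim signal (limma adjusted p = 0.199).

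For stellate cells, the TGF-beta and PDGF list gave 1 risen and 2 fallen of 22 measured genes, 13.6% called against 15.9% of all genes. Tgfbr2, the type II receptor, fell by 0.50 at its brightest probe set, with -0.02 and 0.04 at the dim ones, Smad2, a TGF-beta signal transducer, fell by 0.21, and the co-receptor gene Tgfbr3 rose by 0.35 at dim signal. In collagen processing and matrix, 3 of 38 rose and 0 fell, 7.89% called against 15.9% of all genes. P4ha1, a prolyl hydroxylase needed to fold collagen, rose by 0.80 and at its second probe set by 0.83. Mmp13, a collagenase, rose by 0.87 at dim signal. Fn1, the fibronectin gene, rose by 0.26 at its brightest probe set and fell by 0.53 at the other (adjusted p = 0.0250 and 0.00395 when every probe set was tested). Of 23 further stellate and mesenchymal genes 0 rose and 2 fell by limma, with 4 at an unadjusted p under 0.05. That is 8.7% called, against 15.9% of all genes. The fallen genes were the tropomyosin genes Tpm2, by 1.50 and at its next probe set by 1.61, and Tpm1, by 0.24 at its brightest probe set (adjusted p = 0.0577 when every probe set was tested), with 0.00 at a second bright one. Tpm2 was dim in transgenic cells at 5.59, and its remaining, dim probe sets gave -0.01 and -0.25. Of genes chosen after their values were seen, the vitamin A esterase gene Lrat and the filament gene Gfap, both markers of quiescent stellate cells, were dim at 3.37 against 3.42 and 4.68 against 4.50.

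**Figure D5:**
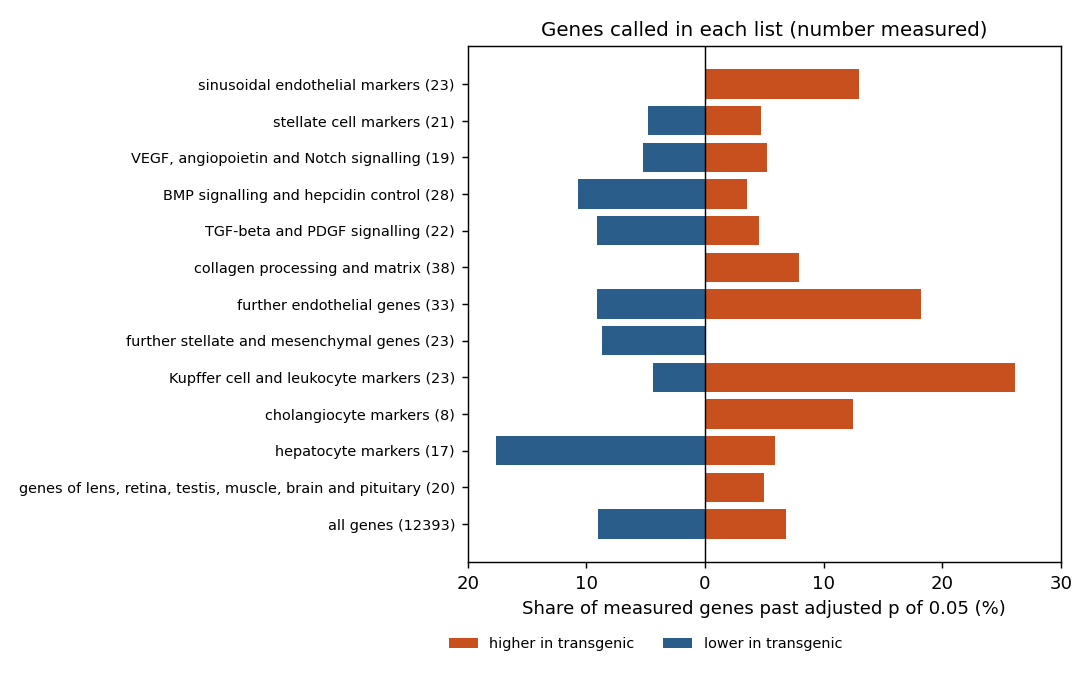
Share of measured genes (%, horizontal axis) that passed an adjusted p of 0.05, higher in transgenic cells to the right and lower to the left, for the member lists, the companion lists and all genes, with the number measured in brackets. Endothelial markers show 13.0% higher and stellate markers 4.76% each way, beside 6.83% and 9.05% of all genes.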

How the data were processed

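The authors deposited 1 log2 value for each probe set and array. The submitters' processing notes name RMA and Affymetrix Expression Console as the tools. RMA equalises distributions between arrays, so changes are relative to other genes, and differences at very low signal are compressed. No source used here gives the software version or says that the 6 arrays were processed as 1 set. Arrays have no read depth, and their number limits the precision.

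Of 22690 probe sets, 64 were controls, 20380 carried 1 gene symbol, 691 several and 1555 none. Members matched by symbol (44 of 44, with the same gene identifiers as the RefSeq table of GRCm38.p6). Limma 3.58.1 (lmFit, eBayes, R 4.3.3) compared genotypes with Benjamini-Hochberg adjustment over 12393 genes. Intervals are 95% limits of that fit. On simulated data for 12393 genes, the fit found 94.0% of 200 genes given a change of 0.5 (10 false calls), and 0% of those given 0.3. In the real data 1967 genes passed, which makes the adjusted threshold easier to reach than with 200 changed genes. Lum passed at 0.20, so the simulated rates do not give the sensitivity for the members.

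The members, the 10 companion lists (231 of 254 genes measured) and the alternatives were chosen with earlier results of these data known. By rule, all members and up to 3 called genes with the smallest p of each companion list were to be named. Promoter windows came from RefSeq, and figures were drawn with matplotlib 3.10.9. Alternatives covered probe set choice, a dim filter, scaling, variance prior, weights, left-out arrays and a replicate block.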

Additional observations from a re-analysis of the deposited data

How the results depend on the processing

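Across 15 alternatives, Bmp2 and Clec4g passed in all 15, Col4a1 in 14 and Kdr in 10. The alternatives are not independent checks. Bmp2 and Kdr have 1 probe set each, so a change of probe set choice reused the same values. Every pass of Col4a1 used its brightest probe set. The setting that brought in the other one, the mean of probe sets, did not pass (limma adjusted p = 0.074). The endothelial count of 3 was 2 to 5 when 1 array was left out (5 without wild-type replicate 1), and the stellate count of 2 was 1 to 2. The stellate count was 1 with centred arrays, with quantile normalization repeated, with the mean of probe sets, with every probe set tested, without probe sets that can match several transcripts, and with the replicate block. With array weights and with the dim filter it was 3, Reln passing in both. Over all genes 1967 passed, and 1267 to 1700 with 1 array left out. The cause of these shifts was not tested, apart from the fewer arrays or genes that a setting uses. The list medians stayed positive, from 0.08 to 0.20 for endothelial and from 0.07 to 0.16 for stellate markers.

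No label says that replicate numbers pair the samples. Correlations between same-numbered arrays, after removing group means, were -0.01, -0.01 and 0.10, the last being the highest of 9 pairs. Not every array correlated best with its own number, and 3 arrays per genotype are too few to exclude pairing. With the replicate block, the endothelial count was 2, without Kdr (adjusted p = 0.0533), the stellate count was 1, and 1505 genes passed in all. Weak signal, which may lie near background, limits what can be said of the 18 members dim in both genotypes.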
